A study of Mus musculus with 3 samples.

Results

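Gal, Penk, Npy and Adcyap1, which encode neuropeptide precursors, and Vipr2, which encodes a receptor for VIP and PACAP, were followed through the raw RNA counts of mouse retina. The members are the 5 genes of a list, 5 of the 19946 genes in the tables, and 5 of 5 were present in each of the 3 single-cell libraries. The explant library held wild-type CD1 retinas that were dissected at E14, cultured on membranes for 6 days and given a small molecule agonist of Sstr2, the somatostatin receptor 2, at 0, 5, 50 or 500 nM, with 2 multiplexed samples at each dose. The P0 and the P14 library each held untreated littermates of a C57BL/6 and CD1 background, with 1 wild-type (Sstr2 +/+), 2 heterozygous (Sstr2 +/-) and 2 knockout (Sstr2 -/-) samples. The allele was a targeted deletion carried through the germline, from a C57BL/6NCrl line outbred to CD1. How many retinas or animals a multiplexed sample held is not given in the sources used here, so the spread between samples may be in part technical.

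Neuropeptides are cut from longer precursors in secretory granules and act on G protein-coupled receptors of nearby cells. Gal gives galanin, Penk gives the enkephalins that bind opioid receptors, Npy gives neuropeptide Y, and Adcyap1 gives PACAP, which raises cyclic AMP in its target cells. PACAP and VIP share the receptor encoded by Vipr2, while galanin, enkephalins, neuropeptide Y and somatostatin act mostly through receptors that lower cyclic AMP. In the mature retina such peptides are best known from small subsets of amacrine and ganglion cells.

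The explant library held 5607 cells and 22638572 unique molecular identifiers (UMIs, each a counted transcript), the P0 library 5706 cells and 50516460 UMIs, and the P14 library 3298 cells and 16851397 UMIs. A multiplexed sample held 1281682 to 4237324 UMIs in the explants, 8822880 to 10793649 at P0 and 1266730 to 5886669 at P14, and pairs of libraries shared 4 to 9 cell barcodes. The authors' cell types were used as deposited, and between 5 and 9 of the markers listed for each type were highest in that type. Ganglion cells (RGCs) of the explants had a summed marker level of 4079 CPM (UMIs of a gene per 1000000 UMIs) against 11646 CPM in P0 RGCs. Sncg, a defining marker, was found in 40.5% of the explant RGCs against 100% at P0, at median depths of 3080 and 24853 UMIs a cell. Its level was 316 against 3188 CPM, while Isl1, another of these markers, went the other way, at 779 against 361 CPM. The authors state that the explants lack viable RGCs. The P14 cells labelled amacrine went in part against their label: 4 horizontal cell markers summed to 2836 CPM in them, above the 2278 CPM of 7 amacrine markers, and 9 ganglion cell markers to 1302 CPM. P14 bipolar cells had 224 CPM of 4 microglia markers, the highest of the P14 types, against 9823 CPM of 7 bipolar markers. Over all P0 cells the Sstr2 count itself was not lower in the samples labelled knockout. In P0 neurogenic progenitors it was 112 CPM in the wild type, 189 and 248 CPM in heterozygotes and 294 and 375 CPM in the samples labelled knockout. There its log2 fold change was 1.57 (SE 0.19, adjusted p = 0.00413, edgeR's quasi-likelihood test) against the 1 wild-type sample. Against the heterozygous samples it was 0.62 (SE 0.14, adjusted p = 0.84). The authors also reported higher Sstr2 in neurogenic progenitors of P0 mutants. The part of the gene that was deleted is not given in the sources used here, so 3′ tags that lie outside it check nothing. Of the explants, 5 of 8 held cells of both sexes, among them both at 0 nM and neither at 500 nM, so dose and sex makeup cannot be told apart in the comparison of these groups. At P0 the wild type, 1 heterozygous and 1 labelled knockout sample were of one sex, and the rest of the other. At P14 the second heterozygous sample held cells of both sexes, and the other samples were all of the same sex. The P14 comparison with the heterozygous samples thus also differs in sex makeup.

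The genes lie far apart in the mouse genome (GRCm38, GENCODE M21), all as protein-coding genes. Gal is at chr19:3409915-3414544 on the minus strand, Penk at chr4:4133531-4138819 on the minus strand, Npy at chr6:49822710-49829507, Adcyap1 at chr17:93199017-93206537 and Vipr2 at chr12:116077726-116146261, these 3 on the plus strand. RefSeq promoters on GRCm38.p6 were at hand for 4 of the 5 genes. The 250 bases before the start sites of Gal (chr19:3414545-3414794, minus strand) and Adcyap1 (chr17:93198767-93199016, plus strand) are shown, since both genes had their highest level in P0 RGCs. Both are written 5′ to 3′, and capitals mark TGACG, the core of the cAMP response element, which was searched on both strands.
Gal: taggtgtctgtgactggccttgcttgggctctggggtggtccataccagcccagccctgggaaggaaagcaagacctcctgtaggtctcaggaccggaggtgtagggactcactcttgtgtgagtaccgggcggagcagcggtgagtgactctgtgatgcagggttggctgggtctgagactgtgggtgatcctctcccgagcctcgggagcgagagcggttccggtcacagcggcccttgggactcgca
Adcyap1: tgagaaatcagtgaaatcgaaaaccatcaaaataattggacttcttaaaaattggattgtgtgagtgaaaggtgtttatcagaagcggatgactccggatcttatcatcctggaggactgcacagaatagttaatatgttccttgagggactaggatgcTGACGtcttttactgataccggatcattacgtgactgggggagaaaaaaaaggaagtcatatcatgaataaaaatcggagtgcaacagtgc
TGACG occurred 1 time before Adcyap1, beginning 91 bases before the start site, and these letters were not in the windows of Gal, Npy and Vipr2. Of 32851 promoters of the same length, 5836 or 17.8% held TGACG or its reverse complement, so 1 match among 4 promoters is a description of the sequence only.

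Levels are given as CPM of the counts summed per multiplexed sample and cell type, as mean ± SD over the samples with at least 10 cells of the type, and cell types were compared by their ranges with no test, because the types were built on the same cells. Intervals and limits cover counting error only. Explants and P0 retinas differed in culture, strain background and library at once, so these cannot be told apart where the libraries are set side by side.

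Gal was highest in the ganglion cells of the P0 retina and, at P14, where RGCs were not among the types, in bipolar cells. In P0 RGCs it reached 84.7 ± 56.5 CPM (n = 5), with 42.0 CPM in the wild type, 85.6 and 165 CPM in heterozygotes and 108 and 22.3 CPM in the labelled knockout samples. The same samples had 8.61 ± 10.6 CPM in amacrine cells, 8.40 ± 3.33 in progenitors, 5.03 in neurogenic progenitors and 2.73 in photoreceptors. RGCs were above amacrine cells in 4 of 5 samples, but the ranges overlapped, because the second labelled knockout sample had 22.3 CPM in RGCs and 27.1 CPM in amacrine cells. A Gal UMI was found in 55.3% of the 85 RGCs (exact 95% interval 44.1 to 66.1%), at a median of 24853 UMIs a cell, against 0.963% of photoreceptors at 4534. Thinned to 2000 UMIs a cell, the shares were 11.8% of RGCs, 1.43% of progenitors and 0.176% of photoreceptors, so RGCs also led at equal depth.

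The explants showed another distribution of Gal. It had 27.2 ± 28.5 CPM in neurogenic progenitors, 19.3 ± 22.4 in amacrine cells and 11 ± 7.24 in progenitors (n = 8 each), which overlapped, and 1.30 CPM in photoreceptors. Among the 200 cells labelled RGCs there was 1 Gal UMI. At P14, 85 of the 92 Gal UMIs, or 92.4%, lay in bipolar cells, at 36.3 ± 31.7 CPM (n = 5) and in 2.94% of these cells, against 0.132% of rods at similar median depths of 3940 and 3374 UMIs. The lowest bipolar value, 5.84 CPM, was above the highest value of 4.17 CPM in cells labelled amacrine, in the 3 samples with enough of them, and cones had 0 UMIs.

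Few cells carried most of the Gal counts. In explant neurogenic progenitors, 5 of the 20 cells with a UMI held at least 5 each and together 79.0% of the UMIs, with up to 24 in a cell. The corresponding values were 6 of 22 cells and 75.9% in explant amacrine cells, 6 of 17 cells and 77.6% in P14 bipolar cells, and 9 of 47 cells and 57.0% in P0 RGCs. Whether the 6 P14 cells are bipolar cells was not tested. In contrast, 109 of the 136 positive P0 progenitors held 1 UMI. In explant neurogenic progenitors 3 samples were high, the first at 0 nM (69.3 CPM), the second at 5 nM (51.5 CPM) and the second at 500 nM (62.0 CPM), and the other 5 samples were between 2.61 and 11 CPM.

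Penk was highest in the neurogenic progenitors of the explants and of P0. In explant neurogenic progenitors it had 31.3 ± 13.9 CPM (n = 8), with 104 UMIs or 73.2% of all its UMIs, against 3.12 ± 2.79 CPM in progenitors. The lowest sample of neurogenic progenitors, 11 CPM, was above the highest of progenitors, 7.55 CPM. At P0 it had 21.8 ± 4.39 CPM in neurogenic progenitors (n = 5), with 14.3 CPM in the wild type, 24.2 and 25.2 in heterozygotes and 21.7 and 23.8 in the labelled knockout samples. The next types were amacrine cells at 3.89 CPM, with a highest sample of 6.44, progenitors at 3.27 ± 0.473, RGCs at 2.99 and photoreceptors at 0.927, and neurogenic progenitors were above all of them in each sample. A Penk UMI was found in 12.2% of neurogenic progenitors in the explants and in 12.4% at P0, against 0.241% and 0.613% of photoreceptors. No cell of either library held more than 3 Penk UMIs among the neurogenic progenitors, so the counts were spread over many cells with few UMIs each. At P14, where neurogenic progenitors were not among the types, 6 Penk UMIs were found in 4 of 3298 cells.

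Npy was common in progenitors at P0, and at P14 it was found in Müller glia and in cells labelled amacrine. P0 progenitors had 45.7 ± 10.1 CPM (n = 5), with 32.3 CPM in the wild type, 42.4 and 52.1 in heterozygotes and 42.9 and 58.6 in the labelled knockout samples, and 23.1% of their cells held a UMI. Neurogenic progenitors of the same retinas had 3.88 CPM and a UMI in 2.24% of cells, and at 2000 UMIs a cell the shares were 8.23% and 0.299%. Npy was thus common in progenitors and scarce in neurogenic progenitors, and it was found in 0 of 85 RGCs, which allows a share of cells with a UMI of up to 3.53%, does not limit the cells that express the gene, and makes the progenitor level at least 34.8-fold higher than the limit of 3 UMIs over all RGCs. P0 amacrine cells had a similar mean, 40.2 ± 27.5 CPM, but only 3.65% of them held a UMI. Of their 331 UMIs, 87.6% lay in 15 cells with at least 5 UMIs, up to 51 in a cell, whereas the 39 progenitors with at least 5 held 20.5% of 1214 UMIs.

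In the explants Npy was lower: progenitors had 7.48 ± 2.63 CPM (n = 8), between 2.26 and 9.75, and 2.78% of them held a UMI. Amacrine cells had 4.16 ± 5.65 CPM, and the RGCs had 10.0 ± 19.4 CPM (n = 7) on 5 UMIs in all. At P14 the cells labelled amacrine had 193 ± 148 CPM in the 3 samples with at least 10 of them, with 294 CPM in the wild type and 23.3 and 263 CPM in the labelled knockout samples. In the same samples the summed horizontal cell markers were 3980 CPM in the wild type and 1155 and 1910 CPM in the labelled knockout samples, so both were lowest in the first labelled knockout sample. Again 4 of the 13 positive cells held 90.9% of the UMIs. All 4 held a UMI of each of the 4 horizontal cell markers, Lhx1, Onecut1, Onecut2 and Calb1, which were found in 3.64%, 1.82%, 10.9% and 18.2% of the 55 Npy-negative cells of this label, at median depths of 74107 and 4348 UMIs. They also held the amacrine markers Tfap2b, Slc32a1 and Pax6, but Gad1 in 1 of the 4 and Gad2 and Slc6a9 in 0. The part of horizontal cells and of depth in this level of Npy was not tested.

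P14 Müller glia had 41.0 ± 24.5 CPM (n = 5), a UMI in 24.8% of cells at a median of 15108 UMIs, and an Npy UMI in 7.66% at equal depth against 0.405% of rods. The lowest Müller sample, 20.2 CPM, was above the highest rod sample, 3.37 CPM.

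Adcyap1 was found at P0 in RGCs and in no other type. All of its 42 UMIs lay in 31 of the 85 RGCs (36.5%, exact 95% interval 26.3 to 47.6%), at 24.0 CPM in the wild type, 17.9 and 30.4 in heterozygotes and 18.3 and 6.70 in the labelled knockout samples, or 19.5 ± 8.75 CPM (n = 5). Against the limit of 3 UMIs over all other P0 cells, the RGC level was at least 295-fold higher. For amacrine cells, with 0 UMIs in 1013 cells, the limit was 0.296% of cells with a UMI, and for the 2797 progenitors it was 0.107%, which do not limit the cells that express Adcyap1. At 2000 UMIs a cell, 2 of the 85 RGCs kept a UMI, so its detection rested on the depth of these cells. In the explants 9 of 15 UMIs lay in RGCs, at 24.5 and 15.3 CPM in the 5 nM samples, 19.4 CPM in the second 500 nM sample and 0 in the others, where the fewer RGCs allowed levels of up to 52.8 to 88.8 CPM in the samples with at least 10 of them. At P14, where RGCs were not among the types, 3 UMIs were found.

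Vipr2, the receptor, was broadly present and had its highest level in photoreceptors and later in bipolar cells. P0 photoreceptors had 41.3 ± 7.54 CPM (n = 5), with 32.9 CPM in the wild type, 38.1 and 39.3 in heterozygotes and 53.1 and 43.3 in the labelled knockout samples. RGCs followed with 22.9 ± 10.2 CPM, then neurogenic progenitors with 13.1, amacrine cells with 12.6 ± 2.40 and progenitors with 7.58 ± 1.59. Photoreceptors were above RGCs in 5 of 5 samples although the ranges met (lowest 32.9, highest 33.5 CPM), RGCs, neurogenic progenitors and amacrine cells overlapped in turn, and amacrine cells were above progenitors without overlap. A UMI was found in 21.2% of photoreceptors at a median depth of 4534 and in 6.40% of progenitors at 8759, so progenitors were deeper but had the smaller share. RGCs, the deepest type at 24853, had the largest share, 41.2%. At equal depth a UMI was kept in 8.29% of photoreceptors, 1.57% of progenitors and 0 of 85 RGCs, which allows a share of up to 3.53%. The larger share of RGCs before thinning was thus not kept at equal depth. The thinning was 1 random draw, and the mean CPM of RGCs was above that of progenitors, so 0 of 85 does not rank these types. In explant photoreceptors Vipr2 had 22.4 ± 7.39 CPM (n = 8), which overlapped with neurogenic progenitors at 14.0 ± 11.4 and RGCs at 11.6 ± 15.8, and progenitors and amacrine cells had 7.83 ± 2.51 and 6.32 ± 3.67 CPM.

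At P14 bipolar cells led with 93.0 ± 18.8 CPM (n = 5), at 84.3 CPM in the wild type, 95.7 and 91.6 in heterozygotes and 122 and 71.4 in the labelled knockout samples. Their lowest value was above the highest of the cells labelled amacrine, 69.8 CPM, which held 12 Vipr2 UMIs in all. Müller glia with 24.9 ± 2.14 and rods with 23.5 ± 3.52 CPM overlapped, and both were above cones with 5.91 ± 3.12. Vipr2 UMIs were spread over the cells: 160 of 578 bipolar cells held one, and 7 cells with at least 5 held 15.1% of the UMIs. At equal depth the shares were 15.7% of bipolar cells, 4.96% of rods and 3.63% of Müller glia. Gal, the member peptide gene highest in P14 bipolar cells, overlapped with Vipr2. Of the 6 bipolar cells with at least 5 Gal UMIs, 83.3% held a Vipr2 UMI against 26.0% of the Gal-negative cells. Median depths were 9810 and 3863 UMIs, and the part of depth in this was not tested.

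**Figure D1:**
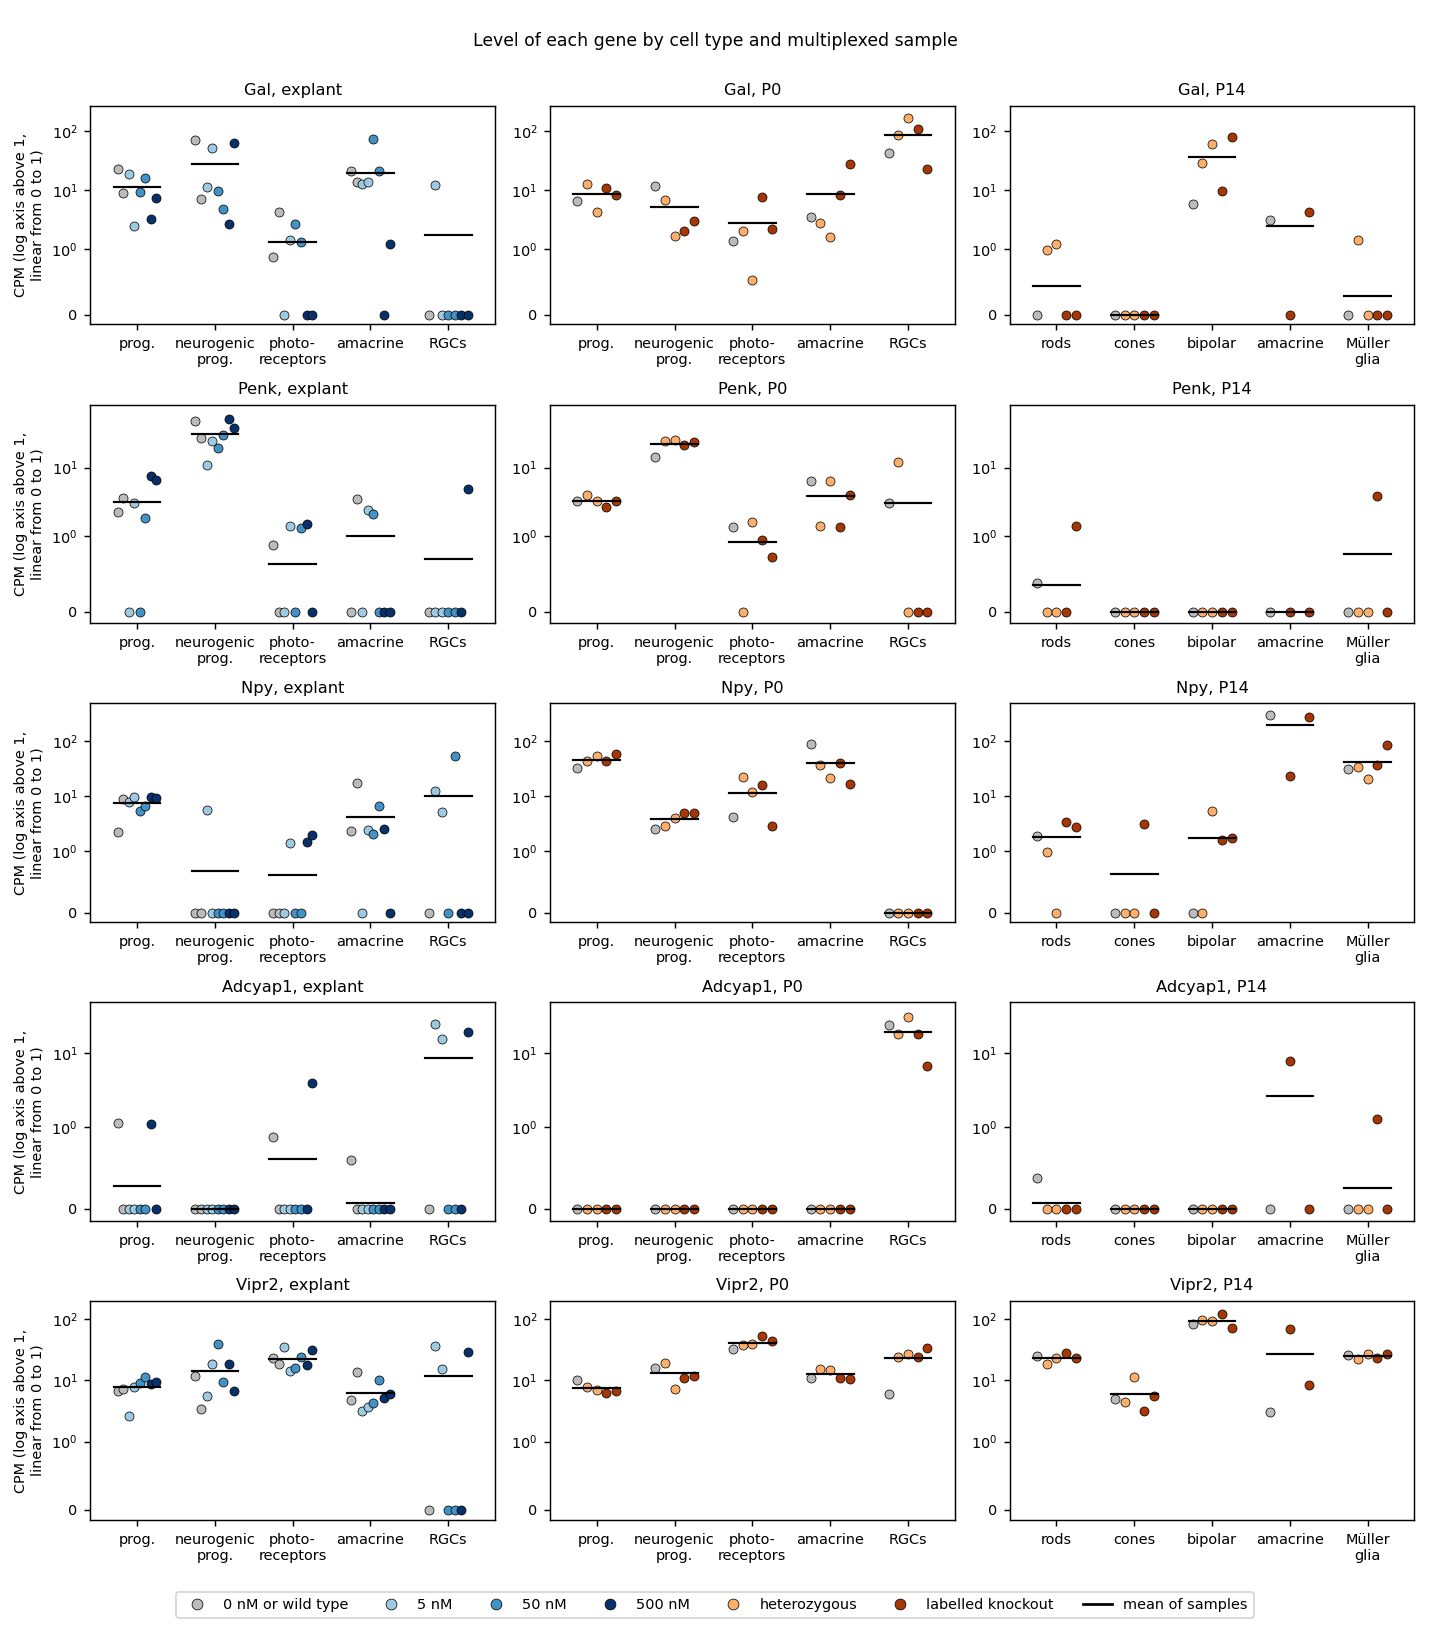
CPM of each gene (y axis, logarithmic above 1 and linear from 0 to 1) by cell type (x axis, prog. for progenitors) in the explant, P0 and P14 libraries, with 1 point per multiplexed sample with at least 10 cells of the type and a bar at the mean. Adcyap1 lay at 0 in all P0 types but RGCs, Penk stood highest in neurogenic progenitors of both libraries, and Vipr2 at P14 was highest in bipolar cells.

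**Figure D2:**
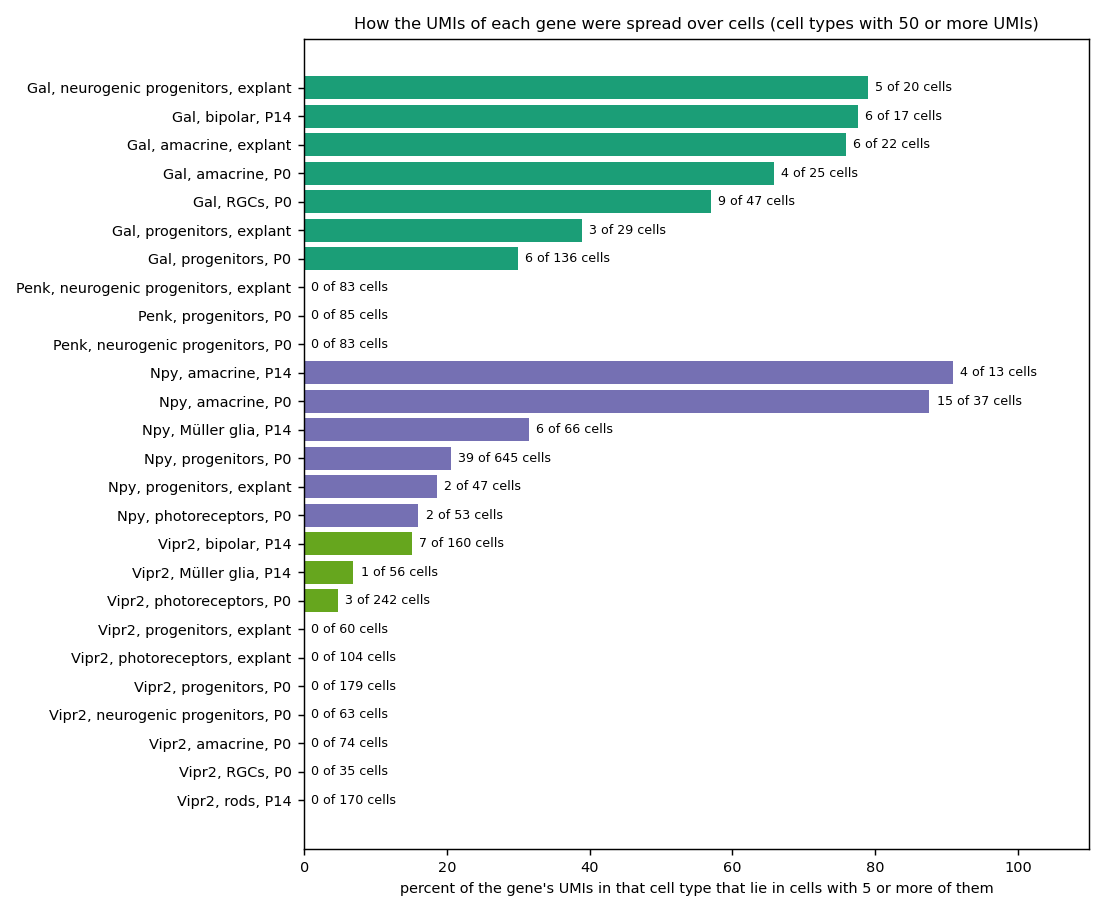
Percent of the UMIs of a gene that lay in cells with at least 5 of them (x axis), for each cell type and library with at least 50 UMIs, with the number of such cells among the cells with a UMI. Npy in P14 cells labelled amacrine (90.9%) and P0 amacrine cells (87.6%) and Gal in explant neurogenic progenitors (79.0%) were held by few cells, and Penk in neurogenic progenitors by none.

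Cells were thinned to 2000 UMIs and split by a UMI of the member to see which fate, transmitter and cell cycle genes came with it. These shares pool cells of several samples and are descriptions, with the SD of the difference over samples, and the partner genes named were picked after their values were seen from lists of fate, transmitter and cycle genes. Among P0 neurogenic progenitors, Sstr2 was found in 52.9% of the 34 Penk-positive and 23.9% of the Penk-negative cells (higher in 4 of 4 samples, SD 35.1 percentage points), and in the explants in 28.6% and 13.5% (5 of 5 samples, SD 9.0). The SD at P0 was larger than the difference, and in the explants it was smaller. Neurod4, a factor of cells leaving the cycle, was found in 17.6% of the Penk-positive against 39.7% of the Penk-negative cells at P0 (lower in 3 of 4 samples) and in 22.9% against 49.5% in the explants (lower in 5 of 5, SD 15.1). Top2a, a mitosis gene, was found in 42.9% against 26.5% of the explant cells, with an SD over samples of 27.6 points that was larger than the difference of 16.3.

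In P0 progenitors, Hes6, a factor of neurogenic cells, was found in 42.1% of the 214 Npy-positive and 51.6% of the negative cells (lower in 5 of 5 samples, SD 6.13), and Dll1, a Notch ligand, in 1.87% and 5.23%, also lower in 5 of 5. In the 39 progenitors with at least 5 Npy UMIs, not thinned, Slc1a3, a glutamate transporter of progenitors and glia, was found in 94.9% against 73.6% and Insm1 in 15.4% against 36.6%, at median depths of 11070 and 8372 UMIs. Among P0 amacrine cells, not thinned, the 15 with at least 5 Npy UMIs held Gad1 in 66.7% and the vesicular GABA transporter gene Slc32a1 in 73.3%, against 24.9% and 38.6% of the Npy-negative cells, but Gad2 in 20% against 69.6%. In P0 amacrine cells 4 horizontal cell markers summed to 204 CPM, against 3040 CPM of 7 amacrine markers. The part of depth and of horizontal cells in these shares was not tested. All 15 Npy-rich cells held Tfap2b, against 71.9% of the Npy-negative cells. Tfap2b was also found in the 4 Npy-rich P14 cells that held the horizontal cell markers, so it does not tell the types apart. Horizontal cell markers are not given for the 15 cells.

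Explant amacrine cells rich in Gal were set beside the rest of their type. In the 6 cells with at least 5 Gal UMIs, not thinned, Tfap2a was found in 0 against 50.4% of the Gal-negative cells, Meis2 in 16.7% against 80.0% and Gad2 in 16.7% against 63.6%, at similar median depths of 4914 and 4742 UMIs. Whether they are amacrine cells was not tested. In P0 RGCs, not thinned, 88.9% of the 9 cells rich in Gal held Pou4f2, a defining ganglion cell factor, against 65.8% of the negative cells, and the part of depth in this was not tested.

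In P0 photoreceptors split by Vipr2, Nrl, the rod factor, was found in 53.9% of the 102 positive and 45.6% of the negative cells (higher in 5 of 5 samples, SD 4.29), and Thrb, a cone factor, in 3.92% and 12% (lower in 5 of 5, SD 2.84). In explant photoreceptors Thrb was found in 13.8% and 22.5%, with an SD of 15.4 points and lower values in 3 of 5 samples. Among P0 amacrine cells, Meis2 was found in 19.0% of the 21 Vipr2-positive and 68.1% of the negative cells (lower in 3 of 3 samples, SD 10.1). Among P14 bipolar cells, Cabp5, a marker of bipolar subtypes, was found in 25.6% of the 82 positive and 41.2% of the negative cells (lower in 4 of 4, SD 10.5).

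**Figure D3:**
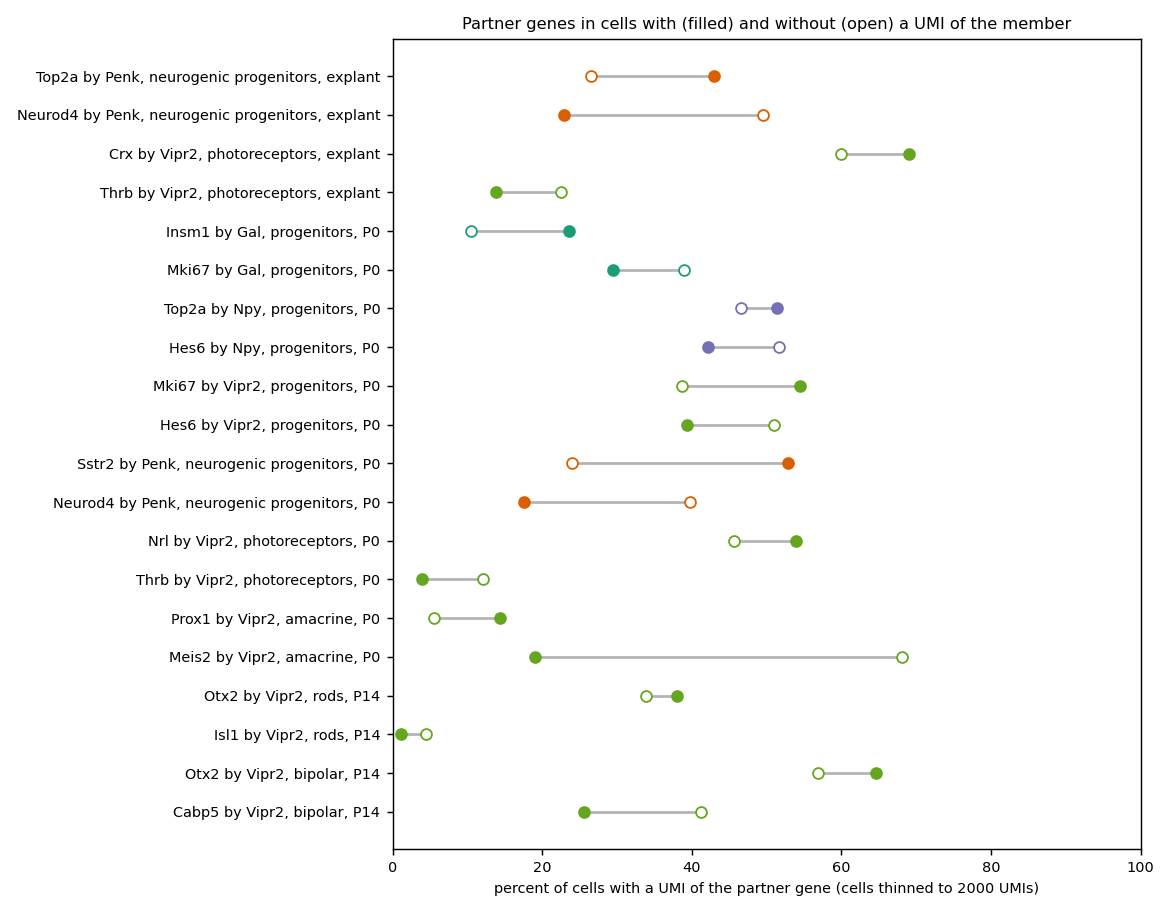
Percent of cells with a UMI of a partner gene (x axis, all cells thinned to 2000 UMIs) among cells with (filled) and without (open) a UMI of the member, for the reported partner genes with the largest difference each way in a cell type. Sstr2 in P0 neurogenic progenitors was found in 52.9% of Penk-positive and 23.9% of Penk-negative cells, and Meis2 in P0 amacrine cells in 19.0% of Vipr2-positive and 68.1% of Vipr2-negative cells.

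The genes whose levels followed a member most closely were found by Pearson's r of log2(CPM + 1) over the sums of a sample and cell type with at least 20 cells, 35 sums in the explants, 21 at P0 and 19 at P14, which share their library and the depth of their cell type. For Penk they were Ube2s, Pkdcc and Psip1 in the explants (r = 0.83, 0.82 and 0.82) and Tiam1, Polr2k and Psip1 at P0 (0.89 each), with Psip1 in both lists. For Npy they were Ston2, Trpm3 and Pmepa1 in the explants (0.75, 0.70 and 0.70), Hmga2, Khdrbs3 and Rfxap at P0 (0.90, 0.88 and 0.88) and Osbpl1a, Sept4 and Gm9945 at P14 (0.92, 0.91 and 0.90). For Gal they were Nr2c2ap, Gbe1 and Psmb7 (0.71, 0.68 and 0.68), then Ola1, Cfl2 and Akap12 (0.82, 0.78 and 0.77), then Trnp1, Smim18 and Kcnmb2 (0.91 each). For Vipr2 they were Vcpip1, Eml3 and Son (0.74 each), then Coq8b, Icmt and Map4k3 (0.92 each), then Usp38, Fcho2 and Hecw1 (0.94, 0.92 and 0.92). Adcyap1 held too few UMIs for this in each library.

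The explants asked whether the agonist of Sstr2 moved these genes. Sums per sample and cell type were tested by edgeR's quasi-likelihood test, with p-values adjusted over all genes of a cell type, and 5 of 25 pairs of member and cell type held enough counts, for Gal, Penk and Vipr2. At 500 nM against 0 nM, 1 of the 5 pairs was called, against 0.195% of all 31814 tests, and 2 had an unadjusted p under 0.05, against 6.4% of all tests. The groups did not overlap in CPM in 2 of the 5 pairs, against 37.6% of all tests. The pair was Gal in amacrine cells, with 20.9 and 13.8 CPM at 0 nM, 12.6 and 13.4 at 5 nM, 71.4 and 21.0 at 50 nM, and 0 and 1.19 at 500 nM. It fell by 4.61 on the log2 scale (SE 0.89, adjusted p = 0.0022), from 43 UMIs to 1 UMI, a ratio of 30.8 with an exact 95% counting interval of 5.24 to 1245. That interval takes each UMI as independent and is too narrow for UMIs that share cells. In the first 0 nM sample 29 of 35 UMIs lay in 2 cells, and in the second 6 of 8 lay in 1 cell. Every sample at a lower dose was above both at 500 nM. Of the 6 cells labelled amacrine with at least 5 Gal UMIs none was in a 500 nM sample, 3 were at 0 nM, 1 at 5 nM and 2 at 50 nM. These 6 cells mostly lacked Tfap2a, Meis2 and Gad2, as given above, and whether they are amacrine cells was not tested.

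The call on Gal rested on few cells and samples, and its adjusted p ranged from 1.19e-06 to 1 over the alternatives. The first 5 nM sample, which like both at 500 nM did not hold cells of both sexes, had 12.6 CPM from 4 UMIs. Dose and sex makeup cannot be told apart in this call. DESeq2 gave a log2 fold change of -4.85 with an adjusted p of 1, limma -3.64 with 0.0328, and edgeR -4.10 with an adjusted p of 0.241 without the first 0 nM sample and -3.83 with 0.074 without the first 500 nM sample. In progenitors, where Gal was 22.6 and 8.94 CPM at 0 nM and 3.24 and 7.36 at 500 nM, its log2 fold change of -1.61 (SE 0.59) did not pass (adjusted p = 0.4, edgeR's quasi-likelihood test). In neurogenic progenitors it was -0.40 (SE 0.56, adjusted p = 0.983), and leaving out the first 0 nM sample turned it to 2.25.

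Penk in neurogenic progenitors had 47.5 and 27.5 CPM at 0 nM, 11 and 24.9 at 5 nM, 19.2 and 30.5 at 50 nM, and 52.3 and 37.6 at 500 nM. The doses overlapped, with a log2 fold change of 0.15 (SE 0.38, adjusted p = 0.991, edgeR's quasi-likelihood test) at 500 nM. Vipr2 in photoreceptors had 22.9 and 18.8 CPM at 0 nM, 34.4 and 14.0 at 5 nM, 15.8 and 23.6 at 50 nM, and 18.0 and 31.8 at 500 nM, with a log2 fold change of 0.16 (SE 0.40, adjusted p = 0.993). Over the 5 pairs the median log2 fold change was -0.40, against 0.00 over all genes. Npy in progenitors, below the filter on low counts, had 2.26 and 8.94 CPM at 0 nM, 7.85 and 9.75 at 5 nM, 5.41 and 6.50 at 50 nM, and 9.71 and 9.37 at 500 nM, so both samples at 500 nM were above both at 0 nM and next to those at 5 nM.

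Along the dose, as a slope on log10 of the dose in nM plus 1, 0 of the 5 pairs were called by edgeR, against 0.211% of all tests, 0 had an unadjusted p under 0.05, against 6.83% of all tests, and DESeq2 and limma also called 0. The slopes were -0.42 (SE 0.22) for Gal in progenitors, -0.29 (0.24) in neurogenic progenitors and -0.33 (0.26, adjusted p = 0.992) in amacrine cells, where the samples at 5 and 50 nM were not in order. They were 0.11 (0.15) for Penk and 0.06 (0.14) for Vipr2.

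The P0 retinas asked whether these genes differed with the Sstr2 genotype, and 17 of 25 pairs, of all 5 members, held enough counts. Against the wild type, 0 of the 17 pairs were called in the samples labelled knockout by edgeR, and 0 by DESeq2 and limma, against 0.112% of all 48419 edgeR tests, and 6 pairs had an unadjusted p under 0.05, against 4.78% of all tests. Both samples labelled knockout lay on the same side of the wild type in 14 of the 17, against 66.7% of all tests. Against the heterozygous samples 0 of 17 were called by edgeR, DESeq2 or limma, against 0.109% of edgeR tests, 2 had an unadjusted p under 0.05, against 4.91% of all tests, and the groups did not overlap in 7 of 17, against 33.7%. The median log2 fold change was 0.52 in the first comparison and -0.18 in the second, with medians of 0.01 and -0.003 over all genes, and the first rests on 1 wild-type sample.

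Npy in P0 amacrine cells stood nearest to a call against the wild type. It had 86.1 CPM in the wild type, 37.1 and 21.5 in heterozygotes and 40.0 and 16.4 in the labelled knockout samples, so the wild type was the highest. The log2 fold change was -1.64 (SE 0.34, adjusted p = 0.228, edgeR's quasi-likelihood test). It lay between -2.37 and -1.10 in the 4 fits that left out another sample, each with 4 samples and 1 wild type. These fits passed the threshold. Each also called more genes of this type than the fit of all samples and held groups of 1 sample, so only their size is given. Without the filter on low counts it passed (-1.65, adjusted p = 4.24e-09, the same test). In that setting 54 of 16437 genes of this type were called, against 1 of 10373 with the filter. The wild type held 150 UMIs, of which 144 lay in 6 cells, and the share of amacrine cells with a UMI, 4.13% in the wild type and 2.59 to 4.38% in the others, did not set it apart. Against the heterozygous samples the value was -0.05 (SE 0.34).

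In P0 progenitors, where Npy was spread over many cells, the log2 fold change was 0.63 (SE 0.21, adjusted p = 0.993, edgeR) against the wild type and 0.10 (SE 0.17) against the heterozygous samples. Gal in P0 amacrine cells had 3.44 CPM in the wild type, 2.80 and 1.61 in heterozygotes and 8.13 and 27.1 in the labelled knockout samples, which did not overlap with the rest. The log2 fold changes were 2.38 (SE 0.75, adjusted p = 0.999) and 3.06 (SE 0.65, adjusted p = 0.261), with 4 cells of at least 5 UMIs, all in the labelled knockout samples. Without the first of these samples, which left 1, they were 2.97 and 3.65. Without the filter they passed (2.37 and 3.06, adjusted p = 0.00671 and 2.25e-07, edgeR's quasi-likelihood test). In that setting 54 and 59 of 16437 genes of this type were called, against 1 and 4 of 10373 with the filter. Gal in P0 RGCs varied as much within genotypes as between them, with log2 fold changes of 0.73 (SE 0.40, adjusted p = 0.742) and -0.71 (SE 0.24, adjusted p = 0.312). Without the first labelled knockout sample, which left 1, they were -0.95 and -2.38.

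For Penk in P0 neurogenic progenitors the log2 fold changes were 0.65 (SE 0.36) and -0.11 (SE 0.27), for Adcyap1 in RGCs -0.86 (SE 0.79) and -0.74 (SE 0.62), and for Vipr2 in photoreceptors 0.53 (SE 0.26) and 0.31 (SE 0.20), against the wild type and the heterozygous samples in turn. None passed. Vipr2 in RGCs had 6.00 CPM in the wild type, from 2 UMIs, 23.9 and 27.0 in heterozygotes and 23.9 and 33.5 in the labelled knockout samples, with log2 fold changes of 2.12 (SE 0.92, adjusted p = 0.515, edgeR) and 0.16 (SE 0.49).

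At P14, 6 of 25 pairs held enough counts, of Gal, Npy and Vipr2. In the samples labelled knockout 1 of the 6 was called against the wild type, against 0.0956% of all 37662 tests, and 2 had an unadjusted p under 0.05, against 2.79% of all tests. Against the heterozygous samples 0 of 5 were called by edgeR, DESeq2 or limma, against 0.0808% of tests, with 1 at an unadjusted p under 0.05, against 3.4% of all tests. The groups did not overlap in 3 of 6 and 2 of 5 pairs, against 60.1% and 31.3% of all tests. The called pair was Gal in bipolar cells, with 5.84 CPM in the wild type, 28.5 and 59.2 in heterozygotes and 9.53 and 78.5 in the labelled knockout samples. It rose by 2.86 on the log2 scale (SE 0.66, adjusted p = 0.0486, edgeR's quasi-likelihood test), and the lower labelled knockout sample was close to the wild type. The second labelled knockout sample held 44 of the 85 UMIs, 40 of them in 3 cells, and without it the log2 fold change was 0.73 with an adjusted p of 0.995. DESeq2 gave 2.92 and limma 1.56, both with an adjusted p of 1, and without the 5% of cells with most UMIs edgeR gave 2.36 with 0.565, and over all alternatives the adjusted p ranged from 2.62e-08 to 1. Against the heterozygous samples the value was 0.17 (SE 0.49).

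Npy in P14 Müller glia had 30.9 CPM in the wild type, 33.6 and 20.2 in heterozygotes and 36.9 and 83.4 in the labelled knockout samples. Both labelled knockout samples were the highest, but the log2 fold changes of 0.92 (SE 0.42) and 0.91 (SE 0.42) did not pass (adjusted p = 1 for both, edgeR). In the cells labelled amacrine, where the heterozygous samples with 4 cells each were dropped and the fit held 3 samples, the value for Npy was -1.07 (SE 1.09), and the summed horizontal cell markers were higher in the wild type, at 3980 CPM, than in the labelled knockout samples, at 1155 and 1910 CPM. The log2 fold changes of Vipr2 were mostly smaller than or close to their errors: against the wild type they were 0.05 (SE 0.28) in rods, 0.24 (SE 0.36) in bipolar cells and -0.05 (SE 0.44) in Müller glia, and against the heterozygous samples 0.34 (SE 0.27), 0.06 (SE 0.33) and 0.04 (SE 0.46).

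**Figure D4:**
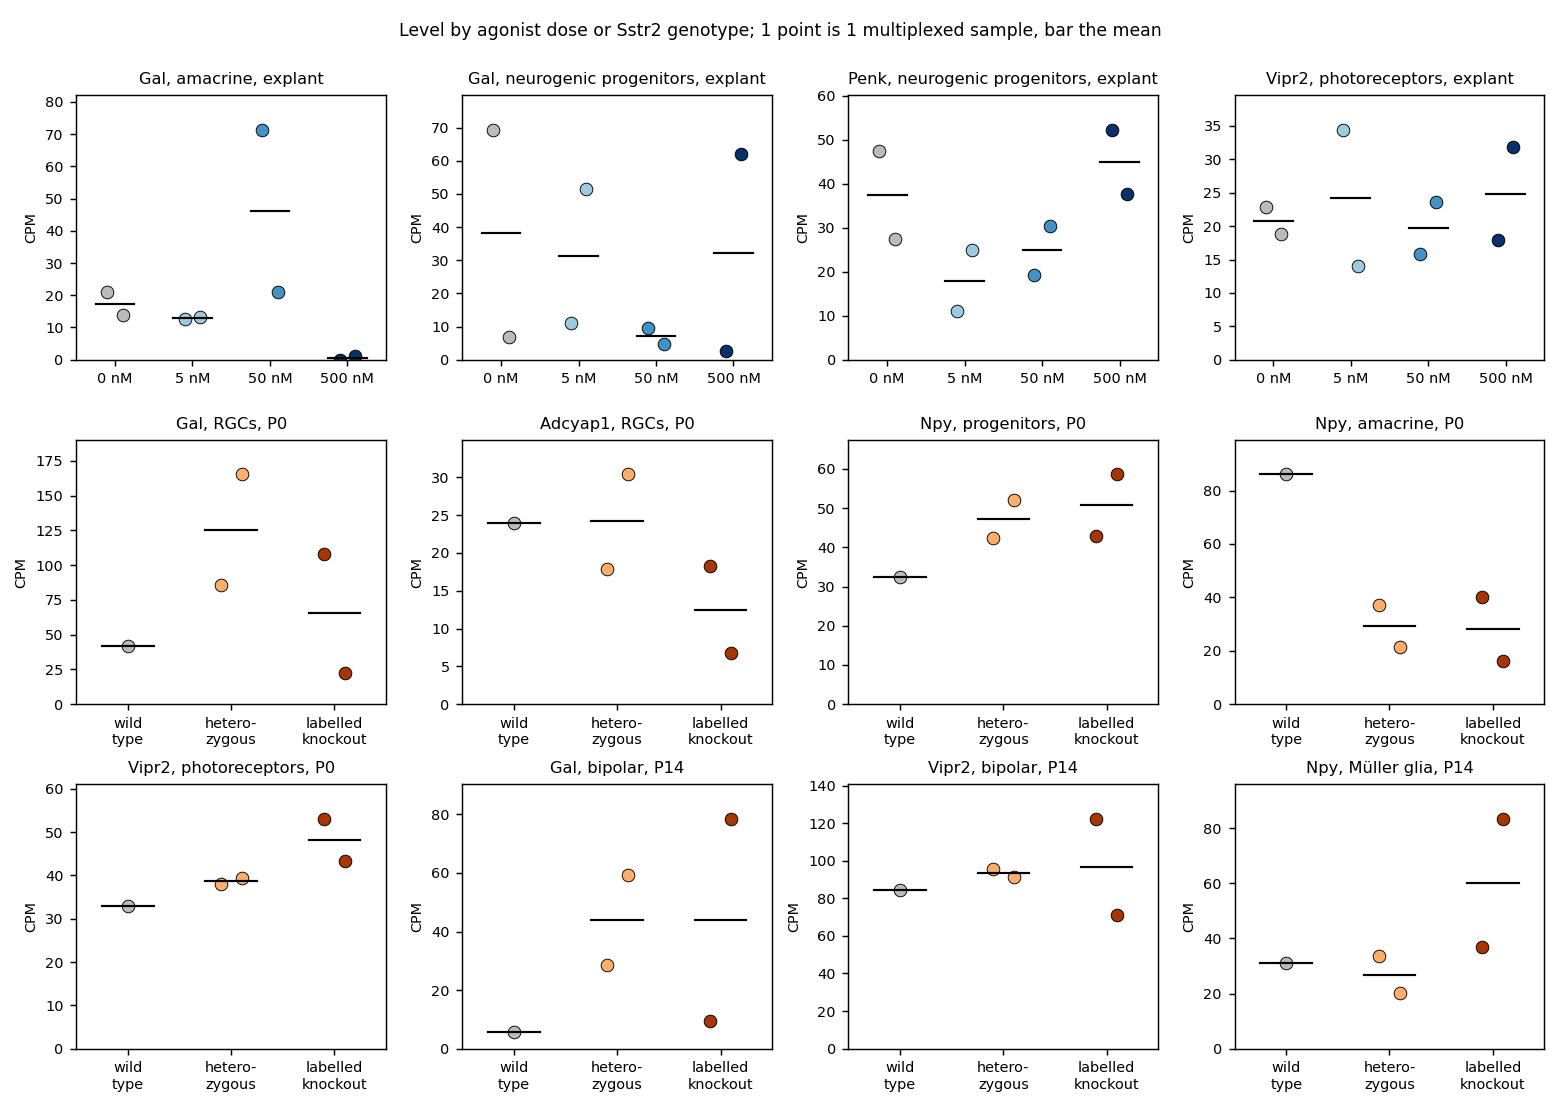
CPM (y axis, from 0) by agonist dose or Sstr2 genotype (x axis) for 12 pairs of gene and cell type, with 1 point per multiplexed sample and a bar at the mean of the group. Gal in explant amacrine cells had 0 and 1.19 CPM at 500 nM, and Gal in P14 bipolar cells had 9.53 and 78.5 CPM in the samples labelled knockout.

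**Figure D5:**
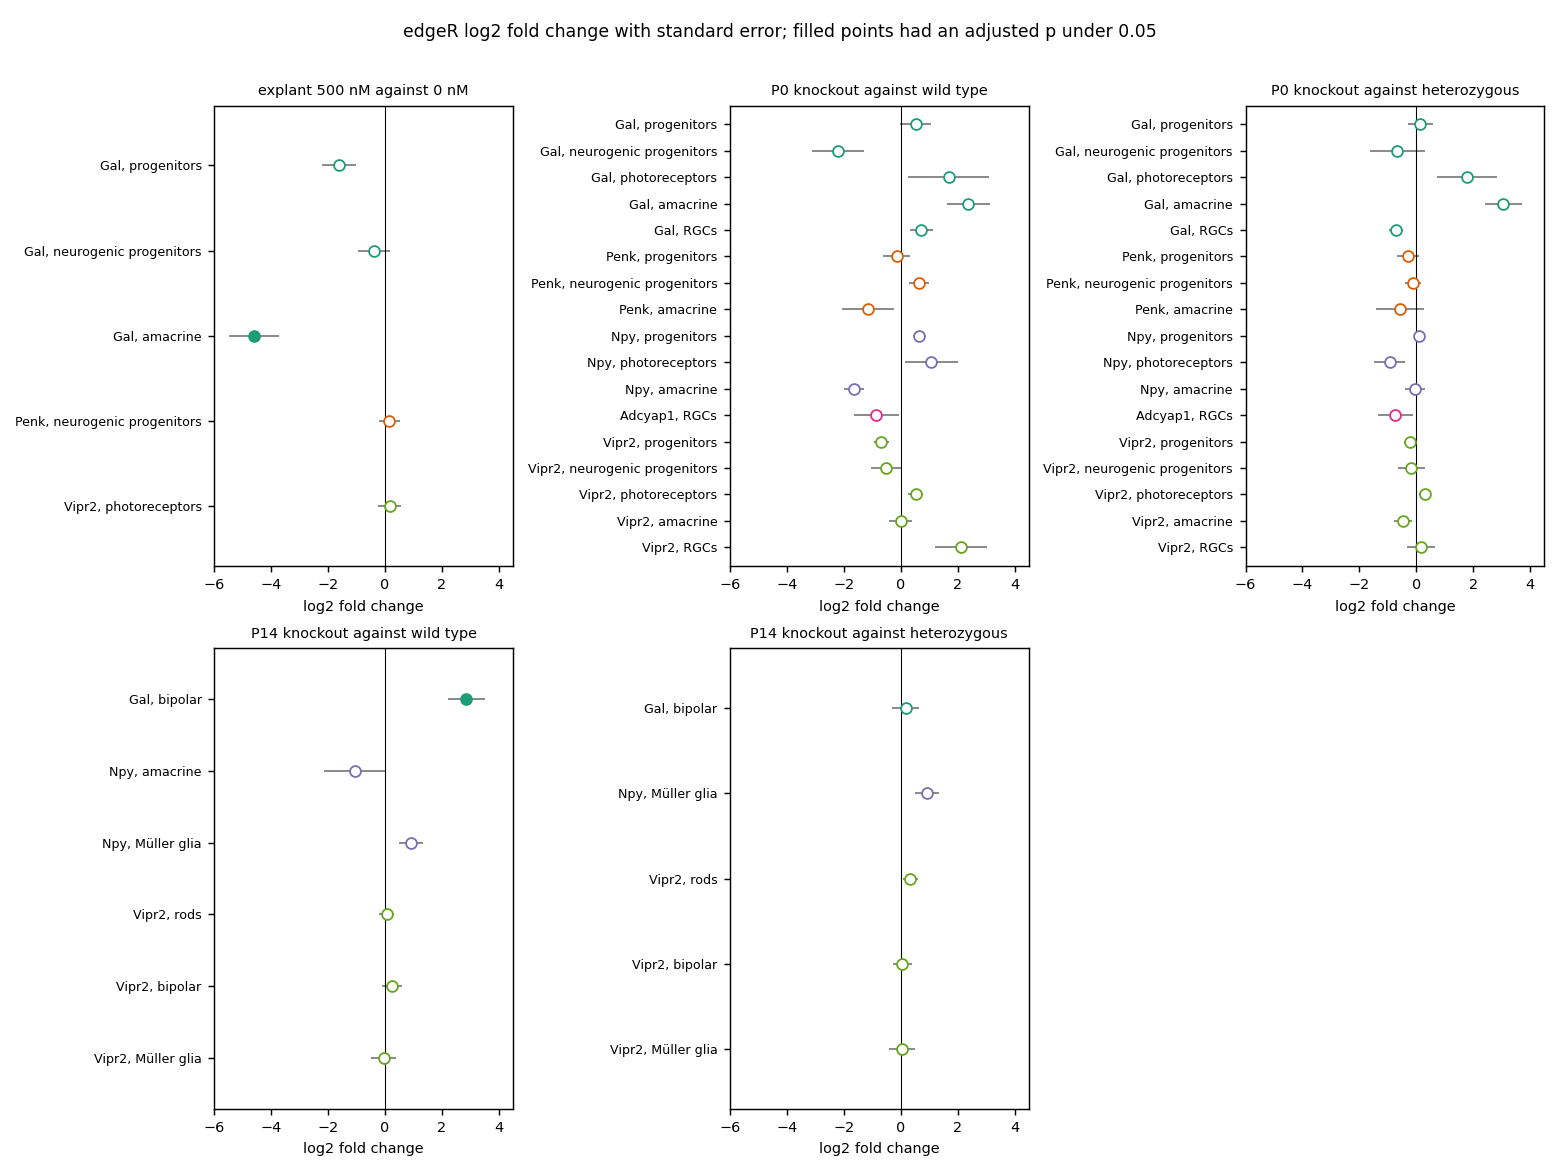
edgeR log2 fold change (x axis) for each tested pair of gene and cell type, in 5 comparisons, where knockout stands for samples labelled so. Bars are a standard error derived from the F statistic of the test. Filled points, Gal in amacrine cells at 500 nM (-4.61) and in bipolar cells at P14 (2.86), had an adjusted p under 0.05.

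The machinery around these genes was examined in 3 lists. Of 24 other neuropeptide genes, 17, 15 and 17 were in the explant, P0 and P14 tables, and 4, 5 and 6 had at least 50 UMIs. None was called in either direction in the 6 comparisons, in 3, 3, 12, 12, 7 and 5 edgeR tests in the order above, of which 3, 2, 1, 5, 2 and 1 had an unadjusted p under 0.05, with median log2 fold changes of -1.56, -0.44, 0.59, -0.15, 0.02 and -0.79. The nearest was Cck, cholecystokinin, in P14 bipolar cells, with log2 fold changes of -2.11 against the wild type and -2.03 against the heterozygous samples (adjusted p = 0.0666 and 0.0728, edgeR's quasi-likelihood test). Of 13 genes of precursor processing and granules, 13 were in each table, and none was called in 36 to 49 edgeR tests a comparison, of which 1 to 6 had an unadjusted p under 0.05, with medians between -0.05 and 0.04.

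Among 14 receptor genes, which were those for the peptides of the members and Oprl1, 9, 5 and 7 were in the tables, with 118, 144 and 34 UMIs in all. None was called in the 1 test that each P0 comparison allowed, which was of Oprl1 in amacrine cells. Besides Vipr2, no receptor for a member's peptide was thus tested there. Oprl1, the nociceptin receptor and a relative of the opioid receptors, held 87 of these UMIs in the explants and 78 at P0. It was at 17.9 and 9.61 CPM in the RGCs and 9.38 and 6.40 CPM in the amacrine cells of these libraries. Of Adcyap1r1, the PACAP receptor, 12 UMIs lay in P0 RGCs and 9 in amacrine cells, and of Npy1r, a neuropeptide Y receptor, 11 and 6. Vipr2 alone, with 265, 748 and 587 UMIs, thus outnumbered the UMIs of these receptor genes together in each library.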

How the data were processed

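Retinal cells were dissociated with papain, tagged by multiplexed sample with lipid-modified oligos, pooled and captured with 10x Chromium 3′ chemistry. Per the labels, the authors used Cell Ranger 3.1.0, Seurat 3 and mm10. The deposited matrices hold raw counts of UMIs per gene and cell, and SCTransform values that the authors deposited as the natural log of 1 plus a corrected count. Multiplexed sample, condition and cell type were taken from the deposited metadata. No doublet caller was run here, and each deposited cell carried 1 sample barcode. Columns of other samples numbered 0.

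The 5 genes and all gene lists were chosen with earlier results of these data known. Counts were summed per multiplexed sample and cell type with at least 10 cells, and tested with edgeR 4.0.16 (R 4.3.3): TMM, filterByExpr, the quasi-likelihood test with all groups of a library in a single fit, and Benjamini-Hochberg adjustment over all genes of a cell type at 0.05. A fit across a library with 1 wild-type sample takes its spread from the other groups. The test gives no standard error, so SE is the absolute log2 fold change over the square root of its F statistic. The fit of explant RGCs dropped the second 0 nM sample (5 cells) and that of P14 cells labelled amacrine both heterozygous samples. p-values measure the spread between these multiplexed samples, which may be technical. DESeq2 1.42.0 and limma 3.58.1 (on log2(CPM + 1) of sums of the SCTransform counts) were alternatives, beside other size factors, no filter, leaving out each sample, leaving out the 5% of cells with most UMIs, and only the explants of both sexes for the dose slope. Shares of cells used exact Clopper-Pearson 95% intervals (scipy 1.17.1), and a count of 0 was given the limit of 3 counts. To compare depths, each cell was thinned to 2000 UMIs, which left out 174 of the explant photoreceptors, 296 of the P14 rods, 57 of the bipolar cells and 18 of the Müller glia, and at most 49 of any other type.

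Named were the members, the 3 genes with the highest correlation to each (at least 100 UMIs), genes of the 3 lists, and partner genes from lists by cell type, of which some are not reported here. The edgeR steps were tested on simulated data. Tables and figures used Python 3.11.15, numpy 2.4.6, pandas 2.3.3 and matplotlib 3.10.9.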

Additional observations from a re-analysis of the deposited data

Results flagged for a closer look

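The 18 log2 fold changes below belong to genes in which every sample of 1 cell type was above the reference and every sample of another cell type was below it. The difference between cell types was not tested. Of the genes tested in at least 2 cell types, 55.4% met the same rule against the wild type at P0 (4 of 4 members), 23.8% against the heterozygous samples at P0 (1 of 4 members) and 45.6% against the wild type at P14 (1 of 2 members), so such a pattern was common among all genes. Those against the wild type rest on 1 wild-type sample per age. For Gal in the P0 samples labelled knockout against the wild type, the log2 fold changes were 0.52 in progenitors, 1.68 in photoreceptors, 2.38 in amacrine cells and -2.21 in neurogenic progenitors. For Penk they were 0.65 in neurogenic progenitors and -1.16 in amacrine cells. For Npy they were 0.63 in progenitors and -1.64 in amacrine cells. For Vipr2 they were 0.53 in photoreceptors and 2.12 in RGCs, while progenitors had -0.68, neurogenic progenitors -0.50 and amacrine cells -0.0042.

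Against the heterozygous samples at P0, Vipr2 had 0.31 in photoreceptors, -0.22 in progenitors and -0.48 in amacrine cells. At P14 against the wild type, Npy had 0.92 in Müller glia and -1.07 in cells labelled amacrine, which also held horizontal cell markers. None of these values had an adjusted p under 0.05 by edgeR's quasi-likelihood test, and groups of 2 samples were too small to look for single samples that stand apart.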

How the results depend on the processing

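Of 5 to 17 pairs tested in a comparison, the number called at 500 nM against 0 nM was 1, and 0 with DESeq2 and 0 to 1 leaving out 1 sample (0 without the first 0 nM or the first 500 nM sample). At P0, some fits without 1 sample called Npy or Gal in amacrine cells or Gal in RGCs, but most such fits left 1 in a group. Leaving these fits aside, the number called was 0 against the wild type, then 2 with no filter. Both lay in amacrine cells, where 54 of 16437 genes were then called, against 1 of 10373 with the filter. Against the heterozygous samples it was 0, then 1 in amacrine cells with no filter, where 59 genes were called, against 4 with the filter. Against the wild type at P14 it was 1, then 0 with DESeq2, limma or without the 5% of cells with most UMIs, and 0 to 1 (0 without the second labelled knockout sample). The dose slope turned, in the explants of both sexes, to 0.65 for Gal in amacrine cells, -0.36 for Penk in neurogenic progenitors and -0.02 for Vipr2 in photoreceptors. Neither 500 nM explant held cells of both sexes, so these slopes cover the lower doses only. They cannot show whether the call at 500 nM depends on sex makeup. Without the 5% of cells with most UMIs, log2 fold changes turned to 0.07 and 0.18 (P0 against the wild type, Vipr2 in neurogenic progenitors and amacrine cells), 0.26 and 0.09 (against the heterozygous samples, Vipr2 in neurogenic progenitors and Penk in amacrine cells), -0.09 (Vipr2 in P14 rods against the wild type), -0.34 and -0.11 (Gal in bipolar cells and Vipr2 in Müller glia against the heterozygous samples). With limma they turned to 0.25 and 0.27 for the same pair at P0, -0.10 in rods and -0.66 for Gal in bipolar cells. Leaving out 1 sample spanned, at 500 nM, -3.95 to 2.25 for Gal and -0.10 to 0.67 for Penk in neurogenic progenitors and -0.26 to 0.57 for Vipr2 in photoreceptors, and for their slopes -1.26 to 0.12, -0.05 to 0.40 and -0.07 to 0.16. At P0 against the wild type it spanned -0.95 to 1.32 for Gal in RGCs and -0.52 to 1.95 for Npy in photoreceptors, and against the heterozygous samples -0.44 to 1.14 and -1.40 to 0.58 for Gal in progenitors and neurogenic progenitors, -1.56 to 0.94 for Penk in amacrine cells, -0.13 to 0.30 and -0.78 to 0.49 for Npy in progenitors and amacrine cells, and -0.75 to 0.64 and -0.07 to 0.42 for Vipr2 in neurogenic progenitors and RGCs. At P14 Vipr2 spanned -0.07 to 0.16, -0.23 to 0.58 and -0.16 to 0.07 in rods, bipolar cells and Müller glia against the wild type, and -0.41 to 0.39 and -0.11 to 0.17 in the latter 2 against the heterozygous samples, where Gal in bipolar cells spanned -1.97 to 1.06. The cause was not tested. Averaged over cells, the photoreceptor share of the P0 Vipr2 level was 48.4% (42.4% from sums). Without thinning, the difference in percentage points was 5.64 for Mki67 by Gal and 0.424 for Hes6 by Vipr2 in P0 progenitors, 1.97 for Isl1 in P14 rods, and 26.2 for Prox1 and -34.7 for Meis2 in P0 amacrine cells, all by Vipr2. Other size factors changed no call. No paired analysis was possible because the barcode numbers of the multiplexed samples pair no samples across groups. Low counts limited the tests: 20 of 25 pairs in the explants, 8 at P0 and 19 at P14 held too few counts to be tested. The parts of depth, cell number and low expression in this were not separated.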

Other observations

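Other peptide genes had their own places in these libraries. Cartpt, the CART precursor, stood at 288 CPM in P14 cells labelled amacrine, which also held horizontal and ganglion cell markers, with 222 UMIs, and at 14.0 CPM in P0 RGCs. Tac1, the substance P precursor, had 29.7 CPM in P0 RGCs and 22.2 CPM in P0 amacrine cells, and 42.8 CPM in P14 cells labelled amacrine. Cck had 47.3 CPM in P14 bipolar cells with 150 UMIs, the type in which Gal and Vipr2 were also highest. Pdyn, the dynorphin precursor, had 17.8 CPM in P14 Müller glia, where Npy was found as well. Pnoc, the nociceptin precursor, had 59.6 CPM in explant RGCs and 13.5 CPM in P0 RGCs. Sst, the peptide gene of the receptor under study, had 5 UMIs in the explants and 1 at P14.

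Of the processing genes, Pcsk1n was at 818 CPM in P0 RGCs and 2979 CPM in P14 cells labelled amacrine, Cpe, a carboxypeptidase of precursors, at 617 CPM in P0 RGCs, Chgb, a granule protein, at 991 CPM in explant and 597 CPM in P0 photoreceptors, and Scg2 at 548 CPM in P14 bipolar cells.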
